A study of Mus musculus with 59 samples.

Results

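The Shank scaffold family comprises Shank1, Shank2 and Shank3, which were taken by symbol from the 18088 genes of the deposited table. All 3 passed the filter on low values (mean of 10 or more), as did 16599 genes in all, and each was read in all 59 libraries. The libraries hold poly(A) RNA from the prefrontal cortex of C57BL/6J mice on postnatal day 25. Pups received a drug or vehicle through the dam's milk on postnatal days 3 to 24, a span of 3 weeks. The 6 arms were heterozygous Shank3 knock-in mice (HT) given lithium, fluoxetine or vehicle and wild-type mice (WT) given lithium, fluoxetine or vehicle, with 10 libraries each except 9 in WT lithium mice. Each arm held 5 females and 5 males, except WT lithium mice with 4 females. Lithium salts are used to stabilize mood and fluoxetine is an antidepressant of the serotonin reuptake inhibitor class. The labels name the allele only as a Shank3 knock-in, while the table's headings begin with L68P. The labels give no litters, so each pup enters the tests as 1 replicate although littermates shared a dam and its drug.

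SHANK proteins are large scaffolds of the postsynaptic density, the protein layer beneath excitatory synapses. Their PDZ domain binds SAPAP proteins, which connect them to PSD-95 and so to NMDA receptors, and their proline-rich stretch binds Homer proteins and cortactin, which connect them to metabotropic glutamate receptors and to actin. A SAM domain lets SHANK2 and SHANK3 assemble into sheets. Loss or mutation of SHANK3 causes Phelan-McDermid syndrome, and variants of all members have been linked to autism.

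The heading L68P has the form of a protein change at residue 68, which in SHANK3 lies in the N-terminal SPN domain. The coding sequence around codon 68 of Shank3 is shown with the aligned stretches of Shank1 and Shank2, to show where the knock-in allele would sit and how closely the members match there. Capitals mark codon 68 of Shank3 (transcript Shank3-201, exon 2, chr15:89500323-89500385), codon 132 of Shank1 (Shank1-203, exon 3, chr7:44313227-44313289) and codon 116 of Shank2 (Shank2-203, exon 3, chr7:144052397-144052459). Each runs 5′ to 3′ on the plus strand, and sequences and exons are from GENCODE vM21 on GRCm38.
Shank1: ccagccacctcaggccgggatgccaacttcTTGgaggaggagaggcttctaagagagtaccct
Shank2: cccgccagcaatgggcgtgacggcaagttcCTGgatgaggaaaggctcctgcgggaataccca
Shank3: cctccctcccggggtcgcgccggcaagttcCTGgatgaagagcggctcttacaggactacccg
Of these 63 bases, 45 are identical between Shank2 and Shank3, 44 between Shank1 and Shank2, and 40 between Shank1 and Shank3. The sequences are those of the reference genome, and the deposited values are sums over a gene, which do not tell the alleles apart.

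Depth ran from 22984556 to 35969254 reads per library, and the markers of excitatory neurons, such as Slc17a7 and Tbr1, were read in every library. Several libraries stood apart. An index of olfactory bulb markers, the mean of 8 markers each divided by its mean over all libraries, exceeded 2.5 in HT lithium female 4 (2.72), HT vehicle male 4 (2.91), WT fluoxetine female 1 (3.62) and WT fluoxetine female 4 (4.03), against a median of 0.53 over all 59. Of these 8 markers, Eomes was at 0 in 3 libraries and Tbx21 in 2, and the rest were read in every library. HT lithium female 5 had 2.70% of its reads on mitochondrial genes, below 5%. These 5 were left out together as an alternative. Libraries just below the bulb limit were kept. Among them were WT fluoxetine female 2 (2.48), HT vehicle male 5 (2.41), HT fluoxetine male 5 (2.38) and HT vehicle female 1 (2.35). HT vehicle female 1 had a choroid plexus index of 33.6, against an arm median of 0.47, and the values without it are given with the comparisons. In this bulk tissue, fewer cells of a type and less RNA per cell cannot be told apart.

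Per kilobase of its longest transcript, Shank1 (ENSMUSG00000038738, chr7:44310253-44360572, transcript length 9826 bases) was the most abundant member, with a mean normalized count of 1918 per kilobase over the 59 libraries. Shank3 (ENSMUSG00000022623, chr15:89499623-89560261, 7365 bases) had 1085 per kilobase and Shank2 (ENSMUSG00000037541, chr7:144001928-144424494, 8988 bases) had 921 per kilobase. All 3 were abundant messages: 95.3% of the tested genes lay below Shank1, 90.3% below Shank3 and 88.4% below Shank2 on this scale. The transcripts are rich in G and C, with 61.4% in Shank1, 62.4% in Shank3 and 55.0% in Shank2, against a median of 49.5% over the tested genes.

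The mean levels of all 3 members were highest in HT mice on lithium and lowest in HT mice on vehicle, although for Shank3 the HT vehicle median lay above those of WT vehicle and WT fluoxetine mice. Mean normalized counts of Shank1 were 22933 ± 2304 in HT lithium, 18913 ± 1758 in HT fluoxetine, 15042 ± 2711 in HT vehicle, 19183 ± 1730 in WT lithium, 20308 ± 3550 in WT fluoxetine and 16720 ± 1895 in WT vehicle mice (SD, n = 10, 9 in WT lithium). Ordered by level, only HT fluoxetine and WT vehicle, as neighbours, differed by more than the larger SD of the pair. Shank2 averaged 9617 ± 791 in HT lithium, 8261 ± 555 in HT fluoxetine, 7278 ± 810 in HT vehicle, 8706 ± 633 in WT lithium, 8338 ± 1417 in WT fluoxetine and 7524 ± 530 in WT vehicle mice (SD, same n). In its order, HT lithium lay beyond the larger SD from WT lithium and HT fluoxetine from WT vehicle, and no other neighbours did. Shank3, the gene that carries the knock-in, averaged 9853 ± 1041 in HT lithium, 7922 ± 750 in HT fluoxetine, 7351 ± 1003 in HT vehicle, 7726 ± 642 in WT lithium, 7609 ± 1592 in WT fluoxetine and 7456 ± 797 in WT vehicle mice (SD, same n). For Shank3 only HT lithium and the next arm, HT fluoxetine, differed by more than the larger SD, and the 5 arms below HT lithium lay together.

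**Figure D1:**
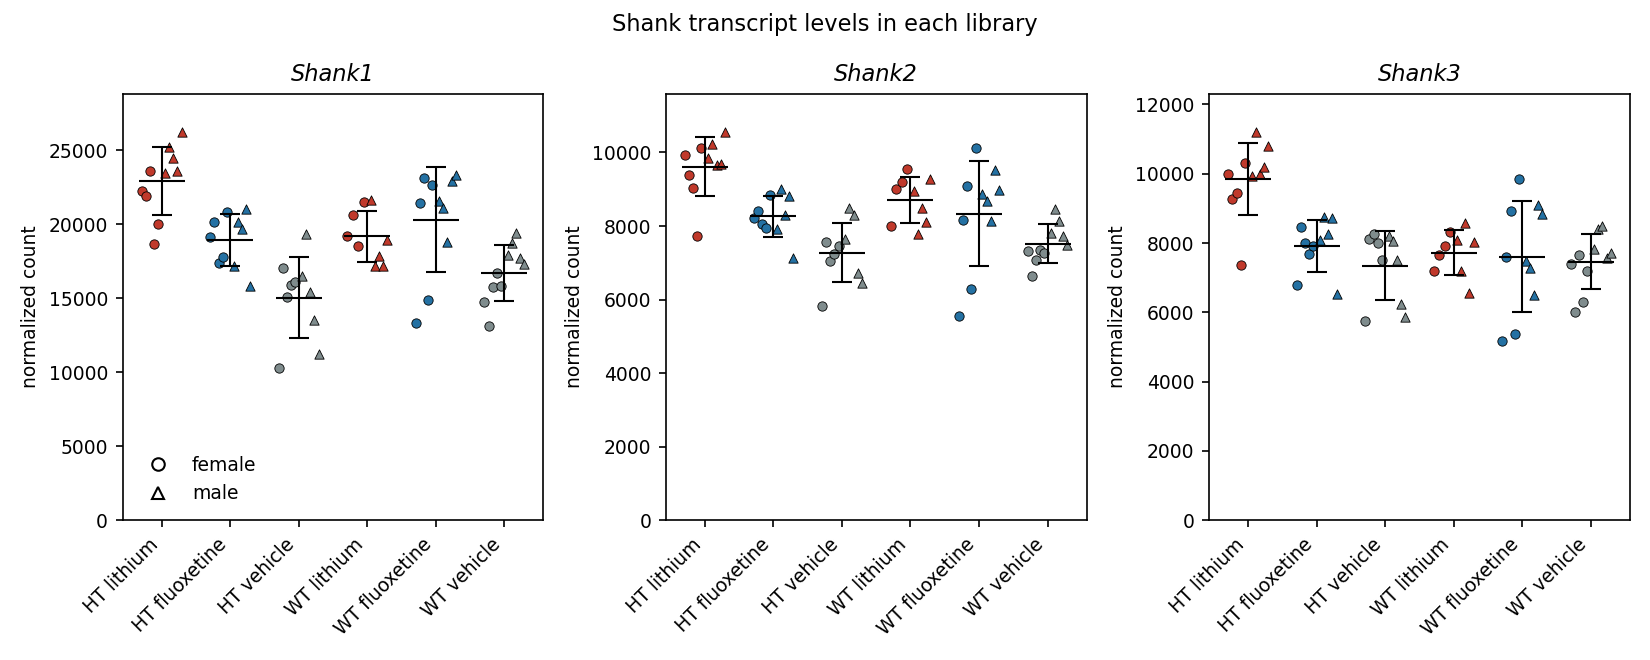
Normalized counts of Shank1, Shank2 and Shank3 (y axes, linear, from 0) in each library of the 6 arms. Circles are females, triangles males, and bars the arm mean ± SD. The HT lithium arm has the highest mean in each panel, and in WT fluoxetine mice a pair of females lies below the other libraries of that arm.

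Without drug, no member passed the test between HT and WT mice, the knocked-in gene included. Shank3 had its lowest, median and highest normalized count at 5748, 7756 and 8248 in HT vehicle mice, against 6022, 7616 and 8496 in WT vehicle mice. For Shank1 these were 10310, 15641 and 19359 in HT vehicle mice, against 13122, 17026 and 19375 in WT vehicle mice. Shank2 had 5824, 7359 and 8495 in HT vehicle mice, against 6640, 7406 and 8465 in WT vehicle mice. The ranges of the arms overlapped over most of their length for each gene. The log2 fold changes, HT over WT, were -0.03 ± 0.09 for Shank3 (SE, limma adjusted p = 0.987), -0.17 ± 0.08 for Shank1 (limma adjusted p = 0.771) and -0.05 ± 0.07 for Shank2 (limma adjusted p = 0.956). None of the members passed, in a comparison where limma called 0% of the 16599 genes, with 1074 at an unadjusted p under 0.05. Here edgeR called 1 and DESeq2 called 6, and over all alternatives the count of genes called ran from 0 to 136. The sign for Shank3 turned to 0.06 when the GC trend was removed, and also turned positive without HT vehicle female 1 (0.02) or male 5.

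In HT mice all 3 members were higher with lithium. Shank1 had 22248, 21885, 23565, 18645 and 20031 normalized counts in HT lithium females, against 10310, 17029, 15077, 15873 and 16127 in HT vehicle females. It had 23461, 25211, 24460, 23613 and 26210 in HT lithium males, against 16513, 19359, 15410, 13514 and 11209 in HT vehicle males. Every lithium library of a sex lay above every vehicle library of that sex. The share of all tested genes that separate in this way was not counted, here or in the comparisons below. Shank2 had 9937, 9374, 9025, 7734 and 10126 in HT lithium females, against 5824, 7562, 7057, 7250 and 7468 in HT vehicle females. In males it had 9853, 10241, 9652, 9675 and 10549 with lithium, against 7649, 8495, 8289, 6732 and 6451 with vehicle. The groups again did not overlap in either sex. Shank3 had 9984, 9284, 9441, 7366 and 10321 in HT lithium females, against 5748, 8118, 8248, 8005 and 7498 in HT vehicle females. In males it had 9949, 11196, 10002, 10186 and 10802 with lithium, against 8208, 8048, 7507, 6250 and 5874 with vehicle. The males did not overlap, whereas among the females 4 of 5 lithium libraries lay above all vehicle libraries and HT lithium female 4, the one with the high bulb index, lay within them.

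Averaged over the sexes, the log2 fold change with lithium in HT mice was 0.62 ± 0.08 for Shank1 (SE, limma adjusted p = 8.09e-07), 0.41 ± 0.07 for Shank2 (limma adjusted p = 1.89e-05) and 0.43 ± 0.09 for Shank3 (limma adjusted p = 0.000272). All 3 members rose, where limma called 10.9% of the tested genes higher and 20.3% in either direction. In females alone the change was 0.53 for Shank1 (limma adjusted p = 0.015), 0.39 for Shank2 (limma adjusted p = 0.0323) and 0.31 for Shank3, which did not pass (limma adjusted p = 0.185). In males alone it was 0.72 for Shank1, 0.42 for Shank2 and 0.55 for Shank3 (limma adjusted p = 0.00141 at most). The sex by lithium interaction, females minus males, was -0.18 ± 0.17 for Shank1, -0.02 ± 0.13 for Shank2 and -0.24 ± 0.17 for Shank3, and none passed (limma adjusted p = 0.442 or higher; 0.012% of genes called).

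Several properties of the libraries moved with this comparison. The slope of log2 values on GC content, per 10 points of GC and relative to the mean of all libraries, was 0.064 ± 0.098 in HT lithium and -0.068 ± 0.058 in HT vehicle mice (SD, n = 10 each). With the GC trend removed within each library the changes were 0.48 for Shank1 (limma adjusted p = 9.7e-05), 0.33 for Shank2 (limma adjusted p = 0.00117) and 0.27 for Shank3 (limma adjusted p = 0.0178). The median bulb index was 0.27 in HT lithium mice (0.15 to 2.72) and 0.73 in HT vehicle mice (0.17 to 2.91), and the index of excitatory neuron markers averaged 1.08 ± 0.14 in HT lithium and 0.98 ± 0.18 in HT vehicle mice (SD, n = 10 each). The index of oligodendrocyte precursor markers averaged 1.11 ± 0.11 in HT lithium and 0.91 ± 0.08 in HT vehicle mice, and that of endothelial markers 1.08 ± 0.11 in HT lithium and 0.95 ± 0.08 in HT vehicle mice (SD, n = 10 each). The index of myelinating oligodendrocyte markers averaged 0.82 ± 0.35 in HT lithium and 0.98 ± 0.26 in HT vehicle mice (SD, n = 10 each). The part of these cell type indices in the changes was not tested. With the bulb index as a covariate, a fit chosen after seeing the data, the changes were 0.55 for Shank1, 0.34 for Shank2 and 0.34 for Shank3 (limma adjusted p = 3.73e-06 at most). Without HT vehicle female 1, which had the lowest count of each member in its arm, they were 0.56, 0.37 and 0.38 in the same order (limma adjusted p = 0.0012 at most). Without the 5 libraries that stood apart they were 0.65, 0.41 and 0.43 (limma adjusted p = 7.03e-05 at most). Of these arms, that fit left out HT lithium females 4 and 5 and HT vehicle male 4. It kept HT vehicle female 1 and male 5, with bulb indices of 2.35 and 2.41. HT vehicle female 1, male 5 and male 4 had the lowest counts of each member in their arm.

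In WT mice on lithium Shank2 rose, while Shank1 and Shank3 did not pass. Shank2 had 7993, 9015, 9197 and 9562 normalized counts in WT lithium females, against 7309, 6640, 7075, 7338 and 7268 in WT vehicle females, and these did not overlap. In males Shank2 had 8950, 7792, 8477, 8102 and 9268 with lithium, against 7812, 8465, 8146, 7716 and 7475 with vehicle, and these did overlap. The log2 fold change over both sexes was 0.21 ± 0.07 (SE, limma adjusted p = 0.0315), so Shank2 rose in WT mice, where 7.66% of genes were called higher and 12.8% in either direction. With the length trend removed the Shank2 change was 0.10 and did not pass (limma adjusted p = 0.448), and the call was also lost on leaving out any of 7 of 19 libraries. Shank1 was of similar size at 0.21 ± 0.09 but did not pass (limma adjusted p = 0.107). Its WT lithium females, at 18541 to 21490, lay above all WT vehicle females, at 13122 to 16732, whereas the males overlapped, at 17172 to 21661 with lithium and 17320 to 19375 with vehicle. Shank3 had 6565, 7926 and 8588 as lowest, median and highest with lithium, against 6022, 7616 and 8496 with vehicle, and the arms overlapped almost fully (0.06 ± 0.09, limma adjusted p = 0.751). The sex by lithium interaction in WT mice was 0.37 ± 0.17 for Shank1, 0.22 ± 0.14 for Shank2 and 0.23 ± 0.18 for Shank3, with none passing (limma adjusted p = 0.519 or higher, 0% of genes called, 1467 at an unadjusted p under 0.05, 0 called by edgeR and 24 by DESeq2).

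The difference between the lithium effects of the genotypes was tested directly. The interaction, lithium effect in HT minus that in WT mice, was 0.42 ± 0.12 for Shank1 (SE, limma adjusted p = 0.197), 0.37 ± 0.12 for Shank3 (limma adjusted p = 0.24) and 0.19 ± 0.10 for Shank2 (limma adjusted p = 0.413). No member passed, and limma called 0.00602% of genes. In males alone the interaction passed for Shank1 at 0.69 (limma adjusted p = 0.0142) and for Shank3 at 0.61 (limma adjusted p = 0.0215), in a fit that called 629 of the 16599 genes. In females alone it stood at 0.14 for Shank1 and 0.13 for Shank3, the lowest values over the alternatives, and did not pass. With the bulb index as a covariate, where 32 genes were called, Shank3 passed at 0.31 (limma adjusted p = 0.0498). Lithium-treated HT mice set against lithium-treated WT mice gave 0.35 ± 0.09 for Shank3 (limma adjusted p = 0.137), 0.25 ± 0.09 for Shank1 (limma adjusted p = 0.288) and 0.14 ± 0.07 for Shank2 (limma adjusted p = 0.453), with 0% of genes called, 1839 at an unadjusted p under 0.05, 0 called by edgeR and 29 by DESeq2. The Shank3 value lay near the threshold: it passed with DESeq2 (adjusted p = 0.0472), with the bulb covariate (0.24, limma adjusted p = 0.0416) and without the 5 libraries that stood apart (0.37, limma adjusted p = 0.0373).

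Fluoxetine went with a higher level of Shank1 in both genotypes. In HT mice Shank1 had 15848, 19414 and 21006 as lowest, median and highest normalized count with fluoxetine, against 10310, 15641 and 19359 with vehicle. The females did not overlap and the males did. The change was 0.35 ± 0.08 (SE, limma adjusted p = 0.0485), where 0.205% of genes were called higher and 0.277%, or 46 genes, in either direction. That count ran from 0 to 166 on leaving out single libraries and from 0 to 197 over the other alternatives. In WT mice Shank1 had 13301, 21508 and 23326 with fluoxetine, against 13122, 17026 and 19375 with vehicle, and 7 of 10 fluoxetine libraries lay above all vehicle libraries. The change was 0.27 ± 0.08 (limma adjusted p = 0.0484), where 3.54% were called higher and 5.66% in either direction. Both calls lay at the threshold. They were lost with the replicate number as a block (limma adjusted p = 0.0528 in HT and 0.05 in WT mice), with no filter on low values, and on leaving out any of 13 of 20 libraries in HT and 16 of 20 in WT mice. Without HT vehicle female 1 the HT change was 0.28 (limma adjusted p = 0.144). The estimates kept their sign throughout, between 0.28 and 0.39 in HT and between 0.19 and 0.40 in WT mice.

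Shank2 and Shank3 did not pass with fluoxetine. Shank2 had 7124, 8261 and 8996 with fluoxetine in HT mice, against 5824, 7359 and 8495 with vehicle (0.19 ± 0.07, limma adjusted p = 0.212). In WT mice it had 5544, 8769 and 10114, against 6640, 7406 and 8465 (0.13 ± 0.07, limma adjusted p = 0.262). The fluoxetine arm of WT mice thus reached both below and above its vehicle arm. Shank3 had 6531, 8047 and 8755 with fluoxetine in HT mice, against 5748, 7756 and 8248 with vehicle (0.11 ± 0.09, limma adjusted p = 0.637). In WT mice it had 5170, 7542 and 9844, against 6022, 7616 and 8496 (0.01 ± 0.09, limma adjusted p = 0.979). WT fluoxetine females 1 and 4 gave the lowest values of every member in their arm: 13301 and 14885 for Shank1, 5544 and 6275 for Shank2, and 5170 and 5362 for Shank3. In the other WT fluoxetine females the ranges were 21420 to 23089 for Shank1, 8160 to 10114 for Shank2 and 7604 to 9844 for Shank3. The same pair had bulb indices of 3.62 and 4.03 and excitatory neuron indices of 0.55 and 0.50. Without the 5 libraries that stood apart, Shank2 passed in WT mice at 0.25 (limma adjusted p = 0.00137) and Shank1 reached 0.40 (limma adjusted p = 0.000617), while Shank3 stood at 0.15 (limma adjusted p = 0.176).

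No member passed in the remaining comparisons with fluoxetine mice except Shank3 between the drugs in HT mice. HT fluoxetine against WT fluoxetine gave -0.09 ± 0.08 for Shank1, 0.01 ± 0.07 for Shank2 and 0.08 ± 0.09 for Shank3 (limma adjusted p = 0.719 or higher; 0% of genes called, 1883 at an unadjusted p under 0.05, 1 called by edgeR and 9 by DESeq2). Its count of genes called ran from 0 to 15 over the alternatives and from 0 to 112 on leaving out single libraries. The genotype by fluoxetine interaction was 0.08 ± 0.12, 0.06 ± 0.09 and 0.11 ± 0.12 in the same order (limma adjusted p = 0.951 or higher; 0% called, 844 at an unadjusted p under 0.05, 0 called by edgeR and by DESeq2). HT lithium against HT fluoxetine gave 0.31 ± 0.09 for Shank3 (limma adjusted p = 0.04), 0.28 ± 0.08 for Shank1 (limma adjusted p = 0.0645) and 0.22 ± 0.07 for Shank2 (limma adjusted p = 0.0687), with 1.23% called higher and 2.15% in either direction. The Shank3 call was lost with the GC trend removed (0.21, limma adjusted p = 0.223) and on leaving out any of 11 of 20 libraries. WT lithium against WT fluoxetine gave -0.06 ± 0.09 for Shank1, 0.08 ± 0.07 for Shank2 and 0.05 ± 0.09 for Shank3 (limma adjusted p = 0.754 or higher; 0.199% called). These contrasts share arms with the comparisons above and are not independent of them.

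**Figure D2:**
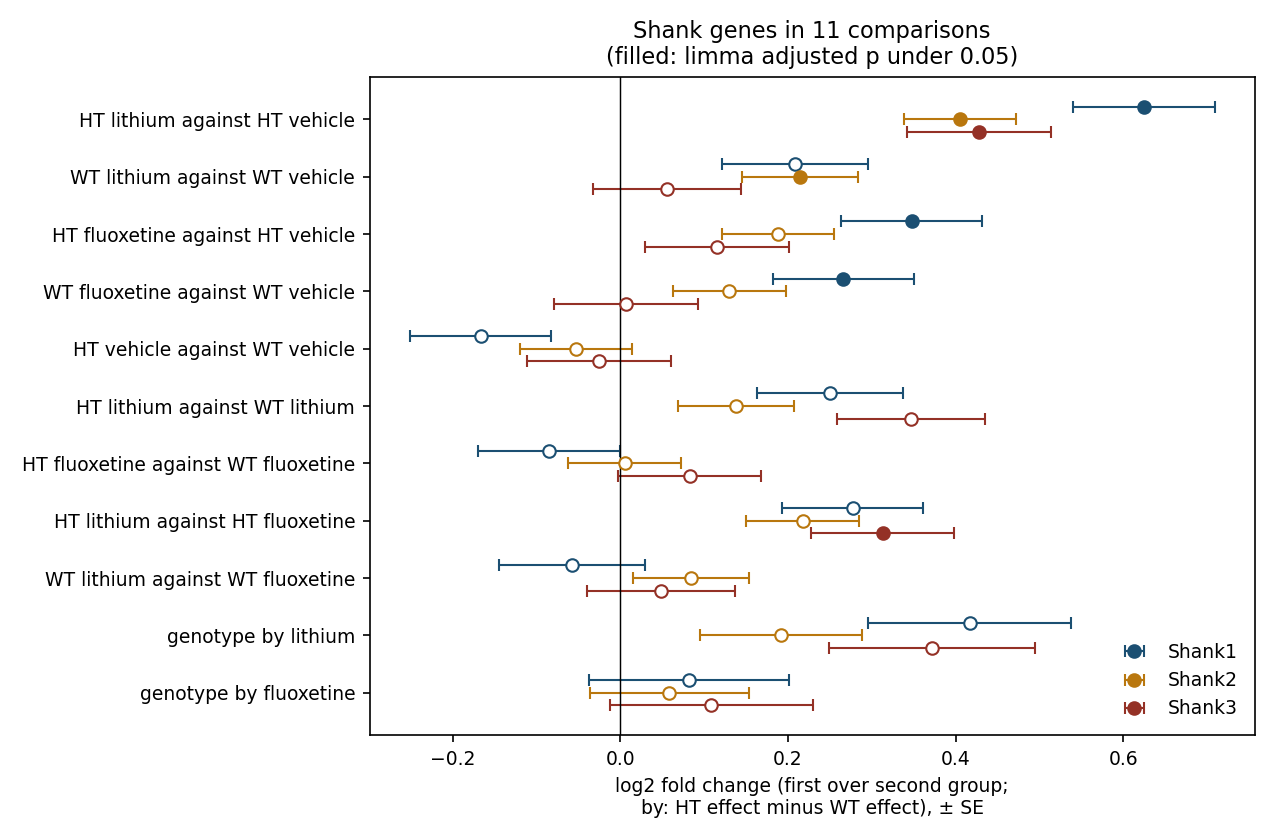
Log2 fold changes of Shank1, Shank2 and Shank3 ± SE from limma (x axis) in 11 comparisons (rows); filled points passed an adjusted p of 0.05. The 3 members pass together only with lithium in HT mice, and Shank1 alone passes with fluoxetine in both genotypes.

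No member passed between females and males over all arms. The log2 difference, females minus males, was -0.10 ± 0.05 for Shank1, -0.08 ± 0.04 for Shank2 and -0.08 ± 0.05 for Shank3 (SE, limma adjusted p = 0.461 or higher; 0.217% of genes called). Mean normalized counts of Shank1 were 18189 ± 3361 in females and 19477 ± 3474 in males (SD, n = 29 and 30). In WT vehicle mice the females lay below the males for Shank1 (13122 to 16732 against 17320 to 19375). The same held for Shank2 (6640 to 7338 against 7475 to 8465), while Shank3 overlapped. In every other arm the sexes overlapped for each member. For Shank1 in HT vehicle mice, females had 10310 to 17029 and males 11209 to 19359. In WT lithium mice the mean of Shank1 was higher in females (19971) than in males (18552). The sexes were not tested within single arms. The sex by fluoxetine interaction passed for no member in HT mice (-0.12 to 0.11; 0% called, 881 at an unadjusted p under 0.05, 0 called by edgeR and 5 by DESeq2) or in WT mice (-0.05 to 0.09), although 8.66% of genes were called in WT mice. That share stood for 1438 genes, against 557 to 2849 on leaving out single libraries and 1 with the GC trend removed.

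Ratios of members within a library do not depend on its scale factor, and they showed whether the family moved in step. The linear ratio of Shank1 to Shank2 averaged 2.39 in HT lithium and 2.05 in HT vehicle mice, with log2 ratios of 1.25 ± 0.11 and 1.03 ± 0.14 (SD, n = 10 each). The difference of 0.22 passed an exact permutation test within sexes (two-sided, 63504 permutations, p adjusted over 6 tests = 0.00491). Shank1 to Shank3 averaged 2.34 in HT lithium and 2.04 in HT vehicle mice, with log2 ratios of 1.22 ± 0.11 and 1.02 ± 0.13 (SD, n = 10 each) and a difference of 0.20 (exact permutation, adjusted p = 0.00491). Shank2 to Shank3 was 0.979 and 0.997 in these arms, a difference of -0.02 that did not pass (exact permutation, adjusted p = 0.732). In HT mice, then, Shank1 rose by more than Shank2 and Shank3. With the GC trend removed the Shank1 to Shank2 difference in HT mice was 0.14 and did not pass (exact permutation, adjusted p = 0.0513), while that of Shank1 to Shank3 passed in each alternative run, at 0.18 to 0.23.

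In WT mice both ratios to Shank3 passed. Shank2 to Shank3 averaged 1.13 in WT lithium and 1.01 in WT vehicle mice, with log2 ratios of 0.17 ± 0.09 and 0.018 ± 0.098 (SD, n = 9 and 10) and a difference of 0.16 (exact permutation, 31752 permutations, adjusted p = 0.00491). Shank1 to Shank3 averaged 2.49 and 2.25 in these arms, a difference of 0.15 (exact permutation, adjusted p = 0.0306). Shank1 to Shank2 was 2.20 and 2.22, a difference of -0.01 that did not pass (exact permutation, adjusted p = 0.884). In WT mice, then, Shank1 and Shank2 rose relative to Shank3, the member nearest to its vehicle level. The difference between the genotypes in these ratio changes was not tested.

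**Figure D3:**
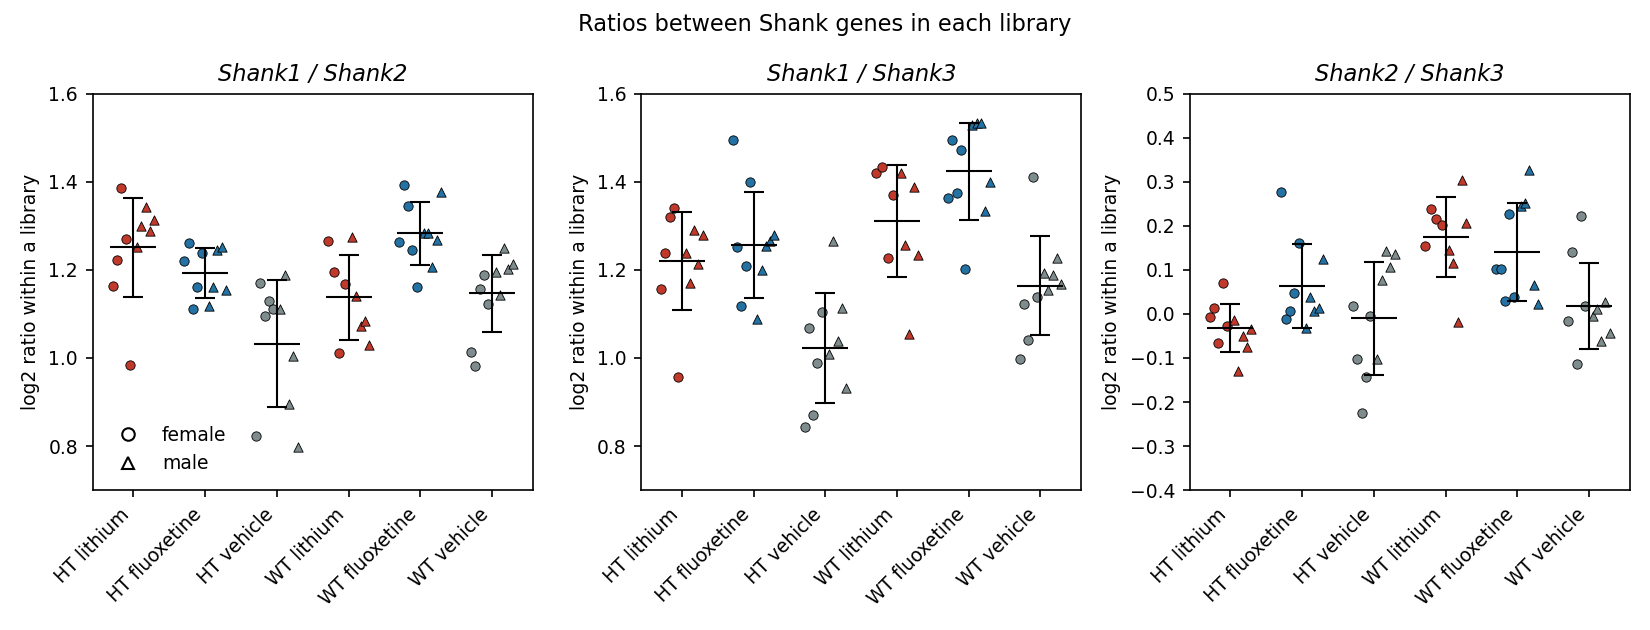
Log2 ratios between members within each library (y axes) in the 6 arms. Circles are females, triangles males, and bars the arm mean ± SD. Shank1 to Shank2 averages 1.25 in HT lithium and 1.03 in HT vehicle mice, and Shank2 to Shank3 averages 0.17 in WT lithium and 0.02 in WT vehicle mice.

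Within groups the members varied together from library to library. After subtracting the mean of each of the 12 groups of genotype, drug and sex, Pearson's r over 59 libraries was 0.89 between Shank2 and Shank3, 0.87 between Shank1 and Shank2 and 0.82 between Shank1 and Shank3. Spearman's rho was 0.79, 0.79 and 0.72 in the same order, and each permutation p was 1e-05, the smallest that 100000 resamples can give, also after adjustment over the 3 pairs. Without the 2 libraries farthest from the median of the first-named gene, r was 0.86, 0.83 and 0.77. Pooled over groups, r was 0.86, 0.91 and 0.80. Within single arms, r ran from 0.49 for Shank1 with Shank3 in WT lithium mice (n = 9) to 0.97 for Shank2 with Shank3 in HT lithium mice (n = 10). Over the alternatives run, the lowest value was 0.56, for Shank1 with Shank3 under quantile normalization.

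**Figure D4:**
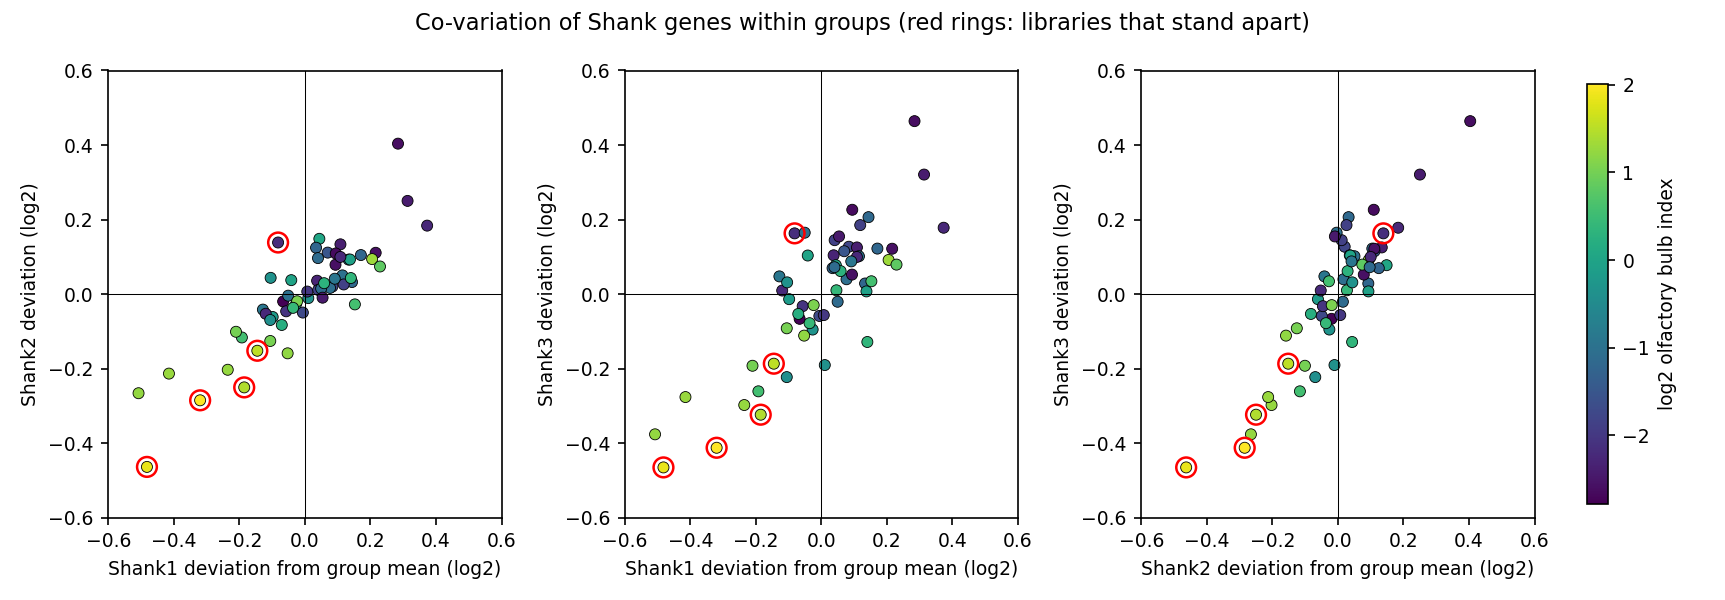
Deviation of each library from its group mean on the log2 scale, for each pair of members (59 points a panel). Colour gives the log2 olfactory bulb index and red rings mark the 5 libraries that stand apart. The libraries with a bulb index above 2.5 lie at the lower left. WT fluoxetine female 2 (2.48) lies above its group mean for each member. From left to right, r is 0.87, 0.82 and 0.89.

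Library composition moved with this shared variation. Of 12 correlations between deviations of a member and of a library measure, those with the log2 bulb index were -0.81 for Shank3, -0.76 for Shank2 and -0.64 for Shank1 (permutation p adjusted over the 12 = 8e-05 at most; Spearman -0.80, -0.71 and -0.54, adjusted permutation p = 0.000909 at most). Those with the log2 index of excitatory neuron markers were 0.86 for Shank3, 0.88 for Shank2 and 0.78 for Shank1 (adjusted permutation p = 2.4e-05 each; Spearman 0.78, 0.76 and 0.67, adjusted permutation p = 3e-05 each). Without the 2 libraries most extreme in the measure, r stayed between -0.59 and -0.78 for the bulb index and between 0.76 and 0.84 for the neuron index. Correlations with the GC slope were weaker, at 0.45 for Shank3, 0.37 for Shank1 and 0.29 for Shank2 (Spearman 0.51, 0.43 and 0.35; 0.46, 0.45 and 0.28 without the same number of libraries; adjusted permutation p = 0.0472 at most). Those with the mitochondrial share lay between -0.14 and -0.06 by Pearson's r and did not pass (adjusted permutation p = 0.365 or higher). By Spearman's rho, Shank2 passed at -0.31 (adjusted permutation p = 0.0302), and Shank1 (-0.21) and Shank3 (-0.17) did not (adjusted permutation p = 0.14 or higher). With the bulb index also subtracted, r between members was 0.76 for Shank1 and Shank2, 0.73 for Shank2 and Shank3 and 0.67 for Shank1 and Shank3. Without the 5 libraries that stood apart it was 0.82, 0.80 and 0.74 in that order, and with the GC trend removed 0.84, 0.90 and 0.80.

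Such correlations were common in these libraries and are set beside those of all genes. The median r of a member with the other 16598 tested genes was between -0.02 and -0.01, but 13.2% of genes exceeded 0.5 with Shank1, 16.9% with Shank2 and 17.4% with Shank3. Against that background, Shank2 ranked 4 and Shank3 ranked 30 among all genes by likeness to Shank1. For Shank2, Shank3 ranked 27 and Shank1 ranked 97. For Shank3, Shank2 ranked 39 and Shank1 ranked 343. With the bulb index subtracted, 2.4% to 4% of genes exceeded 0.5, and Shank2 ranked 19 and Shank1 49 for Shank3. Shank2 then ranked 5 and Shank3 47 for Shank1, and Shank1 ranked 21 and Shank3 39 for Shank2. With the GC trend removed, 15.1% to 20.7% of genes exceeded 0.5. Shank2 then ranked 7 and Shank3 53 for Shank1. Shank3 ranked 51 and Shank1 361 for Shank2, and Shank2 ranked 55 and Shank1 626 for Shank3.

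Genes among the 8 outside the family most like each member were taken by r of deviations from the group means over 59 libraries. For Shank1 they included Adgrl1 (0.88), which encodes latrophilin 1 and is on the partner list, Unc13a (0.88), Ttbk1 (0.87), Bsn (0.86), Ankrd34a (0.85), Celf5 (0.85) and Camta2 (0.85). For Shank2 they included Fmnl1 (0.95), Actn1 (0.93), Unc13a (0.92), Dab2ip (0.92), Synj2 (0.91), Bsn (0.91) and Rims1 (0.91). For Shank3 they were Dlgap3 (0.96), which encodes the SAPAP3 scaffold, Dab2ip (0.95), Wsb2 (0.94), Csnk1g2 (0.93), Plxnd1 (0.93), Fbxl16 (0.93), Sgsm2 (0.93) and Snph (0.93). Unc13a and Bsn, which encode proteins of the presynaptic active zone, were shared by the Shank1 and Shank2 groups, and Dab2ip by the Shank2 and Shank3 groups. The libraries, their composition and their scaling are common to all of these values.

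The proteins that bind SHANKs were followed as a list of 22 genes, all of which were tested. With lithium in HT mice, 9 rose (10.9% of all tested genes did), 1 fell (9.43% did) and 12 did not pass. Their median log2 fold change was 0.20, against -0.0018 over all tested genes. The list was chosen with earlier results of these data known. Across libraries the median r of its genes was 0.46 with Shank1, 0.53 with Shank2 and 0.49 with Shank3, so they are not independent of the members. The SAPAP genes, whose products bind the PDZ domain, included 3 that rose: Dlgap3 by 0.41 ± 0.12 (SE, limma adjusted p = 0.0112), Dlgap2 by 0.26 ± 0.08 (limma adjusted p = 0.0218) and Dlgap4 by 0.26 ± 0.04 (limma adjusted p = 1.52e-05). Dlgap1, the remaining SAPAP gene, stood at -0.06 ± 0.05 (limma adjusted p = 0.451). Dlgap3 averaged 13344 ± 1810 normalized counts in HT lithium and 10111 ± 1766 in HT vehicle mice (SD, n = 10 each). The Homer genes, whose products bind the proline-rich stretch, did not pass: Homer1 at 0.21 ± 0.13, Homer2 at 0.05 ± 0.08 and Homer3 at 0.07 ± 0.14 (limma adjusted p = 0.265 or higher), with Homer2 and Homer3 turning negative under some alternatives. Homer1 passed at 0.38 with the GC trend removed, with and without the replicate block.

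Other partners that rose in HT mice were Lzts3 (0.29 ± 0.10), which encodes the spine protein ProSAPiP1, Adgrl1 (0.29 ± 0.07), Baiap2 (0.26 ± 0.07), which encodes the actin regulator IRSp53, Sptan1 (0.21 ± 0.06), which encodes alpha-II spectrin, Lrrc7 (0.21 ± 0.07), which encodes densin-180, and Arhgef7 (0.18 ± 0.04), which encodes the exchange factor beta-PIX (limma adjusted p = 0.0398 at most). Abi1, a subunit of the actin-regulating WAVE complex, fell by 0.20 ± 0.05 (limma adjusted p = 0.00691). With the GC trend removed, 5 partners were called higher and none lower, and Dlgap2, Dlgap3, Adgrl1, Baiap2, Lzts3 and Abi1 no longer passed. The call was lost on leaving out any of 12 of 20 libraries for Lrrc7, any of 9 for Lzts3, and HT vehicle female 1, male 4 or male 5 for Dlgap2. The count of partners higher was 9 without the 5 libraries that stood apart, 11 in males alone and 1 in females alone. Of all tested genes, the number called in either direction also moved, from 1166 in females alone to 4365 over the alternatives. The partner counts were not set against the share of all genes in the same fit, and they show no difference between the sexes.

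In WT mice on lithium 5 partners rose (7.66% of all tested genes did), none fell and 17 did not pass, with a median of 0.07, against -0.0036 over all tested genes. They were Homer1 (0.45 ± 0.13), Lrrc7 (0.25 ± 0.08), Baiap2 (0.25 ± 0.07), Arhgef7 (0.16 ± 0.04) and Dlgap4 (0.14 ± 0.04), each with a limma adjusted p of 0.0288 or lower. The Baiap2 call was lost without WT lithium female 4, and that of Dlgap4 without any of 5 of 19 libraries. Dlgap3 stood at -0.12 ± 0.12 in WT mice (limma adjusted p = 0.6), at 10150 ± 1246 normalized counts with lithium and 11036 ± 1627 with vehicle (SD, n = 9 and 10). With the length trend removed, and in either sex alone, 0 partners were called in WT mice. With fluoxetine, Dlgap4 (0.14 ± 0.04, limma adjusted p = 0.0444) and Lrrc7 (0.24 ± 0.07, limma adjusted p = 0.038) rose in WT mice, where 3.54% of all tested genes were called higher, and no partner passed in HT mice. The genotype by lithium interaction passed for none of the 22.

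**Figure D5:**
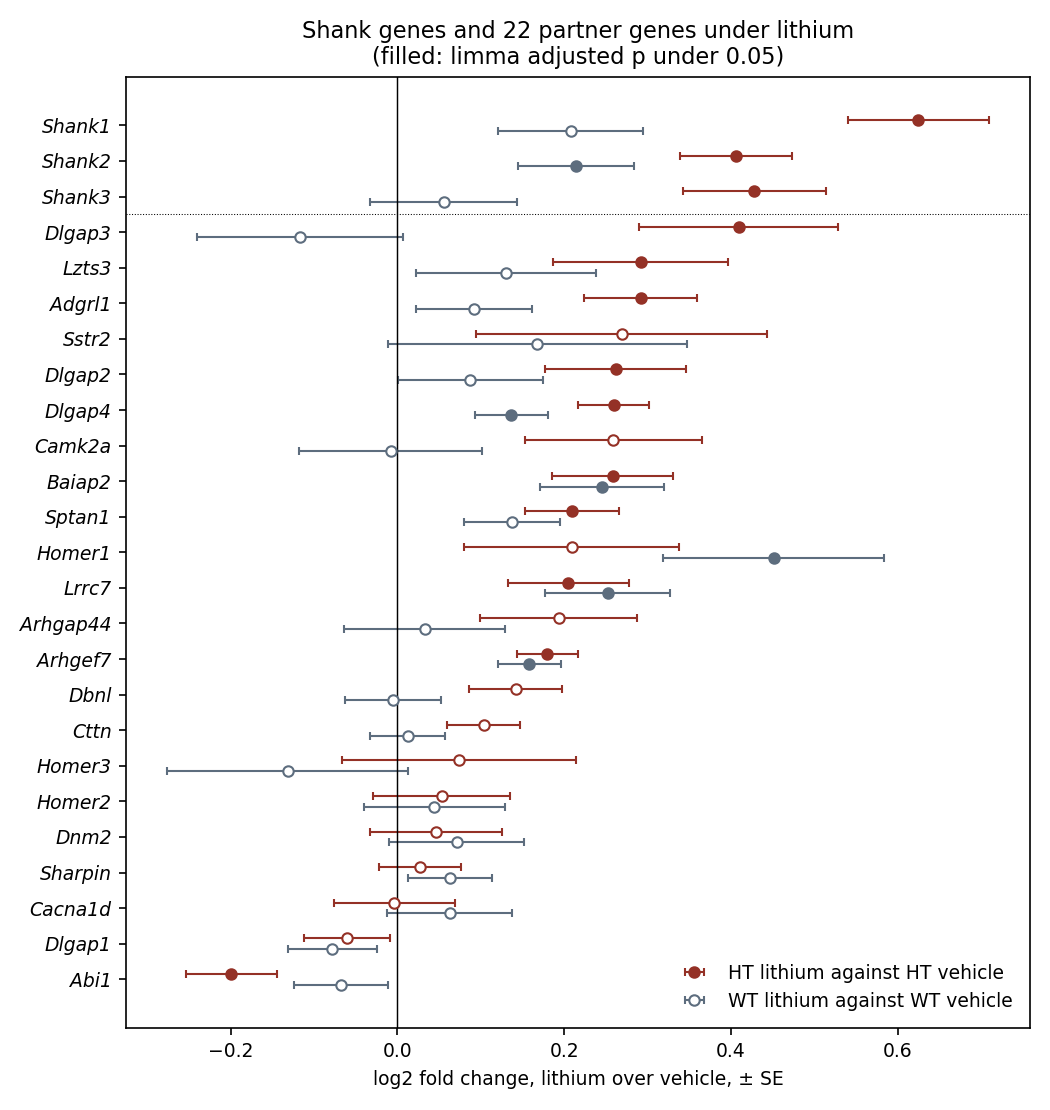
Log2 fold change ± SE with lithium over vehicle (x axis) for the 3 Shank genes and 22 partner genes (rows), in HT mice (red) and WT mice (grey); filled points passed a limma adjusted p of 0.05. All 3 Shank genes and 9 partners are filled to the right of 0 in HT mice, and Shank2 and 5 partners in WT mice.

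Other postsynaptic genes, not all of them particular to excitatory synapses, were followed as a further list of 15 genes. With lithium in HT mice 6 rose (10.9% of all tested genes did), 1 fell (9.43% did) and 8 did not pass, with a median of 0.07, against -0.0018 over all tested genes. Among them, Dlg4, which encodes PSD-95, rose by 0.24 ± 0.08 (limma adjusted p = 0.0179) and Grin1, the obligatory NMDA receptor subunit, rose by 0.27 ± 0.08 (limma adjusted p = 0.0112). Nlgn2 (0.35 ± 0.06), Nlgn3 (0.28 ± 0.06), which encode neuroligins, and Dlg3 (0.12 ± 0.04) rose as well (limma adjusted p = 0.0139 at most). Gria2, an AMPA receptor subunit, fell by 0.18 ± 0.07 (limma adjusted p = 0.048). In WT mice on lithium 2 rose (7.66% of all tested genes did), among them Nlgn3 (0.20 ± 0.06, limma adjusted p = 0.0151), and 13 did not pass. Across libraries the 22 partners had a median r of 0.46 with Shank1, 0.53 with Shank2 and 0.49 with Shank3, and their span was wide. Camk2a, the alpha subunit of the synaptic calcium- and calmodulin-dependent kinase, which is also among the markers of the neuron index, had r of 0.84, 0.88 and 0.88 with Shank1, Shank2 and Shank3, and Dlgap3 had 0.80, 0.88 and 0.96. Homer3 (-0.62, -0.72 and -0.66), Cacna1d (-0.52, -0.71 and -0.80) and Dnm2 (-0.56, -0.74 and -0.77) ran the other way in the same order. These partners were chosen for the size of r after their values were seen.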

How the data were processed

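Poly(A) RNA of 59 prefrontal cortices was sequenced with a stranded kit, per the labels. The submitters' processing notes name GRCm38, Salmon 0.11.2, R 3.6.0 and DESeq2 1.19.11. Each deposited value is a signal, namely the reads of a gene divided by a size factor of its library (normalized count). Dividing by the smallest step gave whole reads for 100.0% of values within 0.001. Symbols were found for 18077 of 18088 gene IDs in GENCODE vM21, and 0 columns were unused.

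Values were log2(normalized count + 1). The 16599 genes with a mean of at least 10 were fitted with limma 3.58.1 (R 4.3.3; trend, robust) with 12 group means and 47 residual degrees of freedom, and p-values were adjusted by Benjamini-Hochberg within each of 16 comparisons at 0.05. Fold changes on this scale understate those of low genes. Ratios and correlations were tested by permutation. Tests were two-sided. Alternatives tried were no filter, quantile normalization, a pseudocount of 0.5 or 5, GC or length trends removed (loess, span 0.5), a replicate block, fewer groups or libraries, each sex alone, and edgeR 4.0.16 and DESeq2 1.42.0 on recovered reads. On these, edgeR called 3475 and DESeq2 3696 genes with lithium in HT mice, against 3374 by limma. The limma fit was tested on simulated independent counts, for lithium in HT mice, lithium in WT mice and genotype by lithium. The other steps were not tested in this way. Genes named are the members, partners that passed with lithium, the Dlgap and Homer genes, and the 8 genes most like each member, of which some are not reported here. Members, lists and tests were chosen with earlier results of these data known, and partner genes are known binders from general knowledge. Other postsynaptic genes and partners outside the rule were named after their values were seen.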

Additional observations from a re-analysis of the deposited data

How the results depend on the processing

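Over 738 alternative values of the members' changes, ratios and correlations, leaving out single libraries apart, 650 kept direction and side of the threshold and 88 did not; causes were not tested. With lithium in HT mice the 3 members kept both in every alternative, except Shank3 in females alone (0.31, limma adjusted p = 0.185). Leaving out single libraries gave 0.56 to 0.67 for Shank1, 0.37 to 0.44 for Shank2 and 0.38 to 0.47 for Shank3. No common pairing by replicate number was seen: 39 same-numbered pairs had correlations of -0.41 to 0.52, mean 0.01. By comparison with vehicle, the mean ran from -0.144 in WT fluoxetine males to 0.153 in HT fluoxetine males. These values cannot tell whether single groups shared litters or batches.

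The replicate block ended the fluoxetine calls of Shank1 in HT (0.35, limma adjusted p = 0.0528) and WT mice (0.27, limma adjusted p = 0.05), as did no filter on low values (0.35 and 0.27); it changed no other call of a member.

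With the GC trend removed, and again with the replicate block added, Shank1 with fluoxetine in HT mice (0.30) and Shank3 between HT lithium and HT fluoxetine (0.21) did not pass. Signs turned for Shank3 with fluoxetine in WT mice (-0.00092), Shank3 in HT against WT vehicle mice (0.064), sex by fluoxetine in WT mice for Shank3 (-0.26) and Shank1 (-0.28), Homer3 with lithium in HT mice (-0.064), and the ratios Shank1 to Shank2 in WT (0.022) and Shank2 to Shank3 in HT mice (0.062). Shank1 to Shank2 in HT mice stood at 0.14. With the length trend removed, Shank2 with lithium in WT mice (0.10), Shank1 with fluoxetine in HT (0.30) and WT mice (0.19) and Shank3 between the drugs in HT mice (0.31) did not pass. Signs turned for Shank3 with lithium (-0.031) and with fluoxetine (-0.044) in WT mice, Shank1 in sex by fluoxetine in HT mice (-0.035), and Homer2 with lithium in HT (-0.011) and WT mice (-0.089).

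With quantile normalization, Shank1 passed with lithium in WT mice (0.19), and Shank2 (0.20) and Shank1 (0.26) between the drugs in HT mice. Signs turned for Shank3 with fluoxetine in WT mice (-0.021) and for Shank2 in HT against WT fluoxetine mice (-0.014), sex by lithium in HT (0.037) and sex by fluoxetine in WT mice (0.0063). With DESeq2, Shank3 passed in HT against WT lithium mice (0.35), as did Shank2 (0.22) and Shank1 (0.27) between the drugs in HT mice, and Shank2 in HT against WT fluoxetine mice turned to -0.010, as with edgeR (-0.011). With only the groups compared, Shank1 with lithium in WT mice (0.21) and Shank2 (0.22) and Shank1 (0.28) between the drugs in HT mice passed, and Shank1 with fluoxetine did not (0.35 in HT and 0.27 in WT mice).

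With the bulb index as a covariate, Shank1 with lithium in WT mice (0.18), Shank3 in HT against WT lithium mice (0.24), Shank2 (0.20) and Shank1 (0.25) between the drugs in HT mice and Shank3 in genotype by lithium (0.31) passed. Signs turned for Shank3 with fluoxetine in WT mice (-0.052), Shank2 in HT against WT fluoxetine mice (-0.027), sex by lithium in HT mice (0.079 for Shank3, 0.21 for Shank2, 0.064 for Shank1) and Shank2 in sex by fluoxetine in WT mice (0.061). Without the 5 libraries that stood apart, Shank1 with lithium (0.21) and Shank2 with fluoxetine (0.25) in WT mice, Shank3 in HT against WT lithium mice (0.37) and Shank2 (0.24) and Shank1 (0.32) between the drugs in HT mice passed. Signs turned in HT against WT fluoxetine mice (-0.064 for Shank3, -0.12 for Shank2), WT lithium against WT fluoxetine mice (-0.10 for Shank3, -0.040 for Shank2), genotype by fluoxetine (-0.061 for Shank3, -0.085 for Shank2, -0.070 for Shank1), and for Shank2 in sex by lithium in HT (0.051) and sex by fluoxetine in WT mice (0.19).

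In females alone, Shank2 with lithium in WT mice (0.33), Shank1 with fluoxetine in HT (0.38) and WT mice (0.29) and Shank3 between the drugs in HT mice (0.25) did not pass, and signs turned for Shank3 in HT against WT vehicle mice (0.12), Shank1 in HT against WT fluoxetine mice (0.033) and Shank1 in WT lithium against WT fluoxetine mice (0.10). In males alone, Shank2 with lithium in WT mice (0.10), Shank1 with fluoxetine in HT (0.32) and WT mice (0.24) and Shank3 between the drugs in HT mice (0.38) did not pass, and genotype by lithium passed for Shank3 (0.61) and Shank1 (0.69). Signs turned for Shank3 with lithium (-0.061) and fluoxetine (-0.039) in WT mice, Shank2 in HT against WT fluoxetine mice (-0.11), WT lithium against WT fluoxetine mice (-0.022 for Shank3, -0.054 for Shank2), Shank2 in genotype by fluoxetine (-0.025), Homer3 (-0.12) and Homer2 (-0.13) with lithium in HT mice, and Dlgap2 with lithium in WT mice (-0.0062).

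Leaving out 1 library at a time changed a call or a sign in these ranges: Shank1 with fluoxetine in HT (0.28 to 0.39) and WT mice (0.23 to 0.33), sex by fluoxetine for Shank1 in HT (-0.072 to 0.16) and WT mice (-0.027 to 0.17), for Shank2 (-0.16 to 0.061) and Shank3 (-0.024 to 0.21) in WT mice, sex by lithium for Shank2 in HT mice (-0.090 to 0.039), Shank2 in HT against WT fluoxetine mice (-0.053 to 0.056), Shank2 between the drugs in HT mice (0.19 to 0.25; passing without HT lithium female 4), Shank2 with fluoxetine in WT mice (0.079 to 0.19; passing without WT fluoxetine female 1), Shank2 with lithium in WT mice (0.20 to 0.24), Shank3 between the drugs in HT (0.28 to 0.35) and WT mice (-0.0091 to 0.11), Shank3 in HT against WT vehicle mice (-0.052 to 0.021), Shank3 with fluoxetine in WT mice (-0.051 to 0.065), Homer2 with lithium in WT mice (-0.0011 to 0.083), and Shank1 to Shank2 in WT mice (-0.026 to 0.019).

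Genes called with lithium in HT mice numbered 3374, but 1908 with the GC trend removed and 1166 in females alone. Each member had at least 4973 reads in every library.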
